A study of Mus musculus with 4 samples.

Results

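Beta-catenin, its destruction complex, its TCF partners and the Groucho/TLE co-repressors were followed through long-term culture of mouse hair follicle stem cells. The set held 10 genes, picked out by gene symbol with earlier results of these data known. All 10 were found among the 24346 symbols of the deposited expression files. They were Ctnnb1, Apc, Axin1, Gsk3b, Tcf7l1, Tcf7l2, Tle1, Tle2, Tle3 and Tle4.

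In the canonical Wnt pathway, beta-catenin (Ctnnb1) is made continuously and is also continuously destroyed. The scaffolds Axin1 and Apc hold it for the kinase Gsk3b, which marks it for degradation. A Wnt signal stops this complex, and beta-catenin enters the nucleus, where it binds DNA-bound factors of the TCF/LEF family (Tcf7l1, Tcf7l2 and the relatives Tcf7 and Lef1). Without beta-catenin the same factors carry TLE proteins, which hold target genes silent. Beta-catenin also links cadherins to the actin skeleton at cell junctions. In the bulge of the hair follicle, Tcf7l1 and Tcf7l2 are known for keeping stem cells undifferentiated.

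The cells (HFSCs) had been sorted as CD49f- and CD34-positive cells from dorsal skin of 4-week-old C3H/HeN mice, and were grown without serum, added cytokines or feeder cells in the medium M-CnT with weekly passaging. The groups sequenced were cells after 10 passages (10p-HFSCs, 2 libraries) and after 48 passages (48p-HFSCs, 2 libraries), with no further treatment in either. The question asked of these libraries was what had changed in cells that had been kept in culture for a long term. Nothing in the labels or methods says whether the libraries of a group came from separate cultures, so p-values measure the spread between these libraries, which may be technical.

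RNA was measured as FPKM, in which the fragments of a gene are divided by its length and by the total mapped, so that levels can be compared between genes. Low FPKM values stood in steps of single reads, and these steps gave estimated depths of 20400000 and 14600000 mapped reads for 10p-HFSCs, and of 16900000 and 9530000 for 48p-HFSCs. The 48p-HFSC libraries differed from each other more than the 10p-HFSC libraries did. At least 2-fold differences between replicates were found for 1871 and 151 of 11018 genes, and replicate 2 of 48p-HFSCs was the shallowest library. The FPKM of all genes summed to 581516 and 719012 in 10p-HFSCs, against 666018 and 1414950 in 48p-HFSCs, so the FPKM scale itself differed between libraries. Keratinocyte markers were abundant. Krt5 was at 1805 and 1473 FPKM in 10p-HFSCs against 8156 and 5120 in 48p-HFSCs, and Krt14 at 1423 and 1217 against 3896 and 2439. Both were higher in both 48p-HFSC libraries, but neither was called (limma adjusted p = 0.181 and 0.282). Of 8 bulge and basal keratinocyte markers, 6 were at 1 FPKM or more in all libraries. Itga6, which encodes the sort marker CD49f, was at 31.4 and 20.8 FPKM against 100.998 and 79.0 and was called higher in 48p-HFSCs. Sox9 was at 45.6 and 44.2 FPKM against 20.2 and 8.31 and was called lower. Krt15 (136 and 82.6 FPKM against 425 and 18.8) and Trp63 (60.4 and 42.0 against 124 and 52.7) were not called. For Krt15 the 48p-HFSC libraries differed 22.6-fold and lay on both sides of the earlier group. The other sort marker, Cd34, reached at most 0.234 FPKM and the bulge marker Lhx2 at most 0.024. The study's own assays differ from these FPKM values. By antibody staining, the study found CD34 on most of its cultured cells at both passages. By real-time PCR, it reported Cd34 as maintained in long-term culture and Lhx2 and Sox9 as increased. The reason for this disagreement was not tested, so the low FPKM values do not show that the cells lacked CD34. Of 10 fibroblast markers, 8 were under 1 FPKM in all libraries, among them Lum, Dcn and Thy1 at 0. Their summed level was nevertheless 353 and 388 FPKM in 10p-HFSCs against 2.74 and 3.47 in 48p-HFSCs, mostly from Vim (284 and 327 against 2.35 and 3.08) and Col1a2 (67.6 and 59.3, and listed at 0 in 48p-HFSCs). Of the other marker lists, 2 of 7 melanocyte markers were at 0 in all libraries (Dct and Sox10) and the list summed to between 1.43 and 11.9 FPKM, with Tyr, Mitf and Pmel at 1 FPKM or more in at least 1 library. The 5 endothelial markers summed to between 0.292 and 2.86 FPKM with Pecam1 alone reaching 1, and of 5 leukocyte markers Cd3e, Tyrobp and Cd207 were at 0 and Cd68 alone reached 1 (7.30 and 6.81 against 53.2 and 78.7). Whether these marker differences had a part in the results below was not tested. In bulk RNA, fewer cells of a type and less RNA per cell cannot be told apart.

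Levels of the 10 genes ranged from 195 FPKM down to 0. In 10p-HFSCs the order by mean FPKM was Ctnnb1, Tle1, Axin1, Tle3, Gsk3b, Apc, Tle2 and Tcf7l2, and Tcf7l1 and Tle4 were listed at 0 in both libraries. Axin1 and Tle3 were neighbours in this order whose libraries overlapped. In 48p-HFSCs the order was Ctnnb1, Tle3, Tle1, Axin1, Gsk3b, Tle4, Apc, Tle2 and Tcf7l1, with Tcf7l2 listed at 0, and here Tle3 overlapped with Tle1, Tle1 with Axin1, and Tle4 with Apc. In both groups Ctnnb1 lay far above the next gene, and the TCF genes lay at or near 0.

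**Figure D1:**
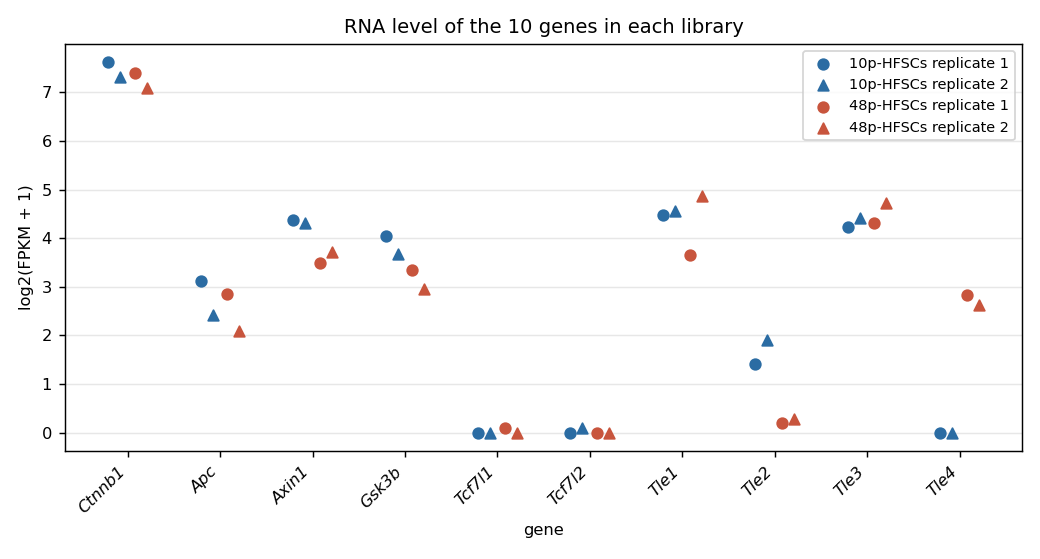
Level of each of the 10 genes as log2(FPKM + 1) in the 4 libraries, with 10p-HFSCs in blue, 48p-HFSCs in red, replicate 1 as circles and replicate 2 as triangles. Ctnnb1 lies highest in every library, Tcf7l1 and Tcf7l2 lie at or near 0, Tle4 is at 0 in both 10p-HFSC libraries and at 6.16 and 5.18 FPKM in the 48p-HFSC libraries, and Tle2 is lower in both 48p-HFSC libraries.

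Of the 10 genes, 8 passed the filter, which asked for 1 FPKM or more in 2 or more libraries, and were tested together with all other genes. Tle4 passed only through 48p-HFSCs and Tle2 only through 10p-HFSCs. With the other group under 1 FPKM, each was tested only because 1 group reached 1 FPKM or more, which favours a difference. Neither the count of calls nor the p-values of these 2 genes are support by themselves. A gene was called when its adjusted p-value from limma (Benjamini-Hochberg over 11018 genes) was under 0.05 and its log2 difference at least 1. By this rule Tle4 was called higher and Tle2 lower in 48p-HFSCs. That is 2 of 8 genes, where 19.9% of all genes tested were called (10.8% higher and 9.15% lower), so the share was near the background. Over all genes, 1189 were called higher and 1008 lower, and rescaling each library to TPM gave 616 higher and 900 lower. The median log2 difference of the 8 genes was -0.28, and that of all genes tested was -0.03.

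**Figure D2:**
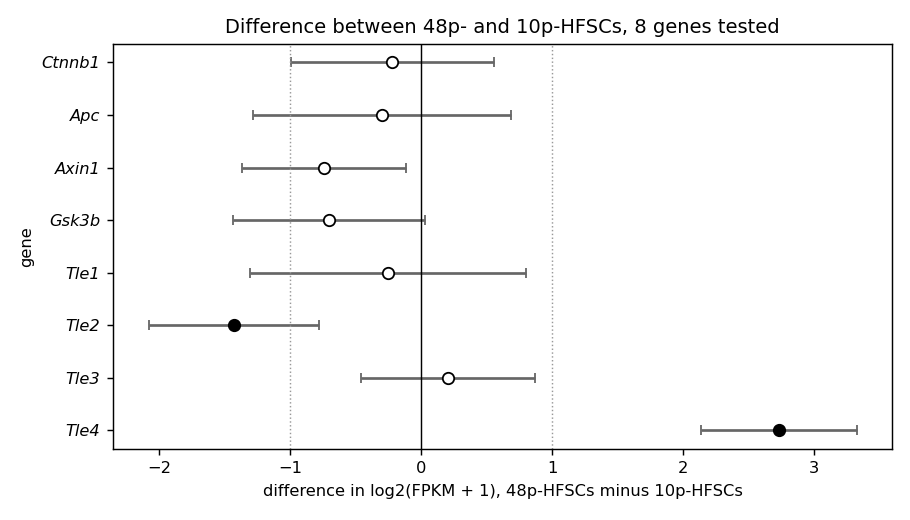
Difference in log2(FPKM + 1), 48p-HFSCs minus 10p-HFSCs, of the 8 genes tested, with 95% intervals from limma, filled points for called genes and dotted lines at the fold limit of 1. Tle4 (2.73) lies to the right and Tle2 (-1.43) to the left of the limits, and the intervals of Ctnnb1, Apc, Gsk3b, Tle1 and Tle3 cross 0.

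Ctnnb1, which encodes beta-catenin itself (chr9:120929216-120960507, mm10), was by far the most abundant of the 10 genes. It was read at 195 and 159 FPKM after 10 passages and at 168 and 135 FPKM after 48 passages. The groups overlapped, and in each group replicate 1 lay above replicate 2. The log2 difference was -0.22 (95% interval -0.995 to 0.553, limma adjusted p = 0.641). By level it ranked 389th and 511th of all symbols in 10p-HFSCs, and 483rd and 893rd in 48p-HFSCs. Exons of Ctnnb1 share 759 bases, 14.6% of its exon bases, with Ulk4 on the opposite strand, and the strand setting of the authors' counting is not given in the sources used here. Ulk4 stood between 1.14 and 2.98 FPKM. Smaller overlaps of this kind, of 1.58% to 4.56% of exon bases, were annotated for Tcf7l1, Tle1 and Tle2.

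Axin1, the scaffold on which the destruction complex assembles (chr17:26138688-26195811), had lower values in 48p-HFSCs that did not pass the test. Its FPKM was 19.6 and 18.8 in 10p-HFSCs, against 10.2 and 12.1 in 48p-HFSCs. The groups did not overlap, which held for 4 of the 8 genes (Axin1, Gsk3b, Tle2 and Tle4) and for 65.9% of all genes tested. The log2 difference was -0.74 (standard error 0.25, limma adjusted p = 0.0933).

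Gsk3b, the kinase that phosphorylates beta-catenin (chr16:38089001-38246084), stood at 15.5 and 11.7 FPKM in 10p-HFSCs, against 9.13 and 6.78 in 48p-HFSCs. Both libraries of the later passage were the lower ones, without overlap. Its log2 difference of -0.71 (standard error 0.30) had a limma adjusted p of 0.145, and it was less far from 0 once length and GC content of the transcripts had been corrected for, at -0.29.

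Apc, the large scaffold that is lost in many colorectal tumors, was measured at 7.74 and 4.37 FPKM in 10p-HFSCs, against 6.27 and 3.25 in 48p-HFSCs. Here the replicates of a group lay farther apart than the group means, with replicate 1 higher than replicate 2 in both groups. The log2 difference was -0.30 (95% interval -1.29 to 0.68, limma adjusted p = 0.615). Its transcript of 12811 bases was the longest of the set. Once length and GC content of the transcripts had been corrected for, the difference turned to 0.22, and it was also above 0 without replicate 1 of 10p-HFSCs (0.05) or without replicate 2 of 48p-HFSCs (0.09), so that no direction can be given for Apc.

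A ratio of FPKM values within one library does not depend on how the libraries were scaled against each other. It can still depend on the length and GC content of the transcripts. The FPKM of Ctnnb1 was 4.54 and 4.55 times the summed FPKM of Apc, Axin1 and Gsk3b in the 10p-HFSC libraries, and 6.57 and 6.09 times this sum in the 48p-HFSC libraries. The groups did not overlap, and the replicates of 10p-HFSCs were almost equal although Ctnnb1 itself differed between them. The summed level of the 3 destruction complex genes was 42.9 and 34.9 FPKM in 10p-HFSCs, against 25.5 and 22.2 FPKM in 48p-HFSCs. On the log2 scale the ratio was higher in 48p-HFSCs by 0.48, and by 0.42 to 0.53 when 1 library was left out. The ratio was not recomputed with the correction for length and GC content. That correction moved the log2 difference of Ctnnb1 from -0.22 to -0.05 and that of Apc from -0.30 to 0.22. Gsk3b moved from -0.71 to -0.29 and Axin1 from -0.74 to -0.67. The exact test below was likewise run on uncorrected values. The exact permutation test of the difference in the ratio gave p = 0.333 (two-sided), the smallest value that 2 libraries against 2 allow. The difference stands as a description.

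**Figure D3:**
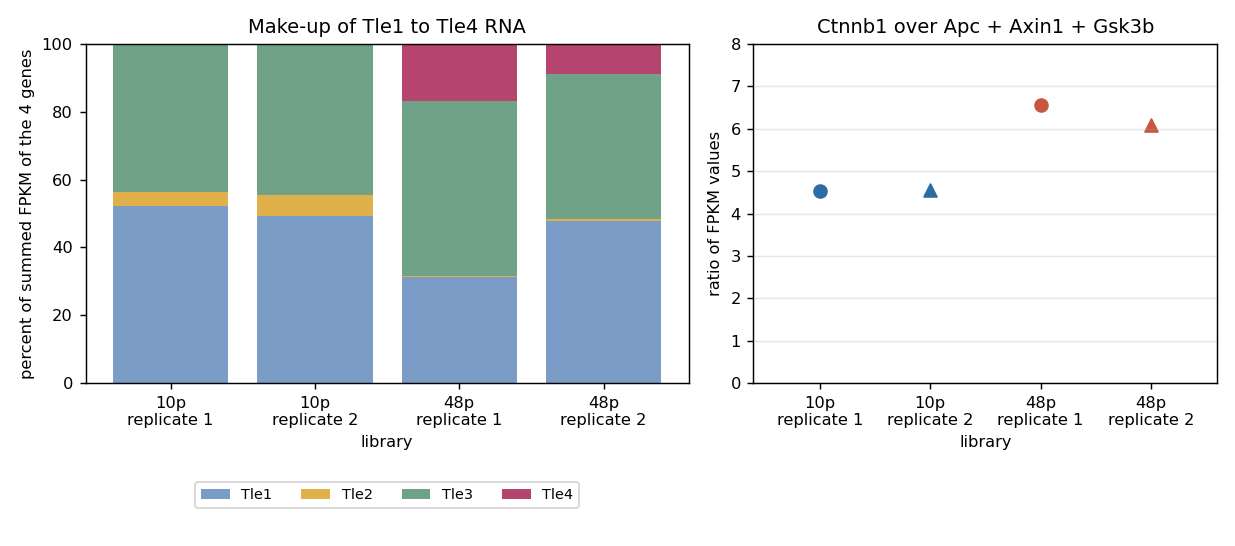
Left, percent of the summed FPKM of Tle1, Tle2, Tle3 and Tle4 that each gene made up in each library. Right, FPKM of Ctnnb1 divided by the summed FPKM of Apc, Axin1 and Gsk3b in each library, with 10p-HFSCs in blue and 48p-HFSCs in red. Tle4 made up 16.7% and 8.79% in 48p-HFSCs and was at 0 in 10p-HFSCs, Tle2 made up 0.382% and 0.353% in 48p-HFSCs against 4.11% and 6.08% in 10p-HFSCs, and the ratio on the right was 4.54 and 4.55 against 6.57 and 6.09.

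Both TCF genes of the set were at the limit of detection in both groups. Tcf7l1 (chr6:72626378-72789254) was listed at 0 in 3 libraries and at 0.067 FPKM in replicate 1 of 48p-HFSCs, which corresponds to about 2.57 reads for a transcript of average length. Tcf7l2 (chr19:55741820-55933654) was likewise listed at 0 in 3 libraries and at 0.076 FPKM in replicate 2 of 10p-HFSCs, about 3.09 reads. In single libraries, 3 reads corresponded to between 0.065 and 0.139 FPKM of Tcf7l1 and to between 0.053 and 0.113 FPKM of Tcf7l2. These limits cover counting error only. None of 13 subunits of RNA polymerase II and none of 13 Ndufa subunits of complex I was at 0 in any library. Of 81 ribosomal protein genes, 4 were at 0 in at least 1 library (Rpl10l, Rpl39l, Rpl3l and Rps4l). So were 3 of 39 proteasome subunit genes (Psma8, Psmb11 and Psmb8). These sets do not measure how often genes of low level are missed. Neither TCF gene passed the filter, and no change in either direction was detectable at this depth.

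The other members of the TCF/LEF family were at similarly low levels. Tcf7 did not exceed 0.216 FPKM in any library, and Lef1, the factor of hair shaft precursors, had 0 FPKM after 10 passages and 0.056 and 0.050 FPKM after 48 passages. Summed over the 4 genes of the family, the level was 0.216 and 0.277 FPKM in 10p-HFSCs, against 0.326 and 0.050 FPKM in 48p-HFSCs, with overlapping groups. Ctnnb1 stood at 135 FPKM or more in the same libraries.

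The TLE co-repressors, which bind TCF factors and many other repressors, were the part of the set in which calls were made. Their summed FPKM was 40.6 and 45.4 in 10p-HFSCs, against 36.8 and 58.9 in 48p-HFSCs, and overlapped between the groups. Within this sum the make-up differed.

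Tle4 (chr19:14448150-14598051, on the minus strand) had no FPKM above 0 after 10 passages and stood at 6.16 and 5.18 FPKM after 48 passages. The values of 48p-HFSCs correspond to about 453 and 215 reads, while 3 reads in the 10p-HFSC libraries would have been 0.034 and 0.047 FPKM. The log2 difference on the log2(FPKM + 1) scale was 2.73 (standard error 0.24, limma adjusted p = 0.00161), a scale on which the change of a gene that starts at 0 is set mostly by the added 1. No fold change is given, since the earlier group was at 0. The study itself had listed Tle4 among its most upregulated genes in 48p-HFSCs, from these same libraries, so this is not an independent find. When either 10p-HFSC library was left out, the difference was the same but the adjusted p-values from limma were 0.0652 and 0.0632.

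Tle2 (chr10:81574561-81590845) moved the opposite way from a low level. Its level was 1.67 and 2.76 FPKM in 10p-HFSCs, about 86.8 and 103 reads, against 0.140 and 0.208 in 48p-HFSCs, about 6.06 and 5.05 reads. Both later libraries were far below both earlier ones, and the mean FPKM in 10p-HFSCs was 12.7 times that in 48p-HFSCs. The log2 difference was -1.43 (standard error 0.26, limma adjusted p = 0.0170), and -3.05 with 0.1 added to each FPKM in place of 1. The call was lost without replicate 1 or replicate 2 of 10p-HFSCs (adjusted p = 0.0671 and 0.0883).

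Tle1 and Tle3 made up most of the summed FPKM of Tle1 to Tle4 in all libraries and neither was called. Tle3 (chr9:61372366-61418497) was read at 17.7 and 20.2 FPKM in 10p-HFSCs, against 19.0 and 25.3 FPKM in 48p-HFSCs with overlap, a log2 difference of 0.20 (95% interval -0.46 to 0.86). Rescaling each library to TPM turned this difference to -0.36, and this rescaling moved the median of all genes to -0.56. Tle1 (chr4:72117142-72200919) stood at 21.3 and 22.4 FPKM in 10p-HFSCs but at 11.5 and 28.2 FPKM in 48p-HFSCs, where the libraries lay on both sides of the earlier group. Its log2 difference of -0.26 had a 95% interval from -1.31 to 0.80, and was 0.36 without replicate 1 and -0.87 without replicate 2 of 48p-HFSCs.

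As a share of the summed FPKM of the 4 TLE genes, Tle4 went from 0 in both 10p-HFSC libraries to 16.7% and 8.79% in the 48p-HFSC libraries. Tle2 had 4.11% and 6.08% against 0.382% and 0.353%. The share of Tle1 was 52.4% and 49.4% against 31.3% and 47.9%, and that of Tle3 was 43.5% and 44.6% against 51.6% and 42.9%. The groups did not overlap for Tle1, Tle2 and Tle4 and overlapped for Tle3. The difference in the share of Tle1, -11.2 percentage points, was -2.96 without replicate 1 and -19.5 without replicate 2 of 48p-HFSCs. The exact permutation test gave p = 0.333 for each of the first 3 and p = 1 for Tle3 (two-sided), where 0.333 is the smallest possible value.

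Promoter sequence was examined for 8 of the genes (RefSeq, GRCm38.p6), with 11 annotated starts. Apc and Axin1 were not among them, so the counts below do not cover the whole set. The 250 bases before a start of Tle4 and of Tcf7l2, each at 0 in one group or more, are set beside those before a start of Ctnnb1 and of Tle3, which were read in every library, each 5′ to 3′ on the strand of the gene. Capitals mark CG dinucleotides, the sites of DNA methylation in mammals. The windows are chr19:14598184-14598433 (minus strand) for Tle4, chr19:55741560-55741809 (plus strand) for Tcf7l2, chr9:120933150-120933399 (plus strand) for Ctnnb1 and chr9:61372116-61372365 (plus strand) for Tle3.
Tle4: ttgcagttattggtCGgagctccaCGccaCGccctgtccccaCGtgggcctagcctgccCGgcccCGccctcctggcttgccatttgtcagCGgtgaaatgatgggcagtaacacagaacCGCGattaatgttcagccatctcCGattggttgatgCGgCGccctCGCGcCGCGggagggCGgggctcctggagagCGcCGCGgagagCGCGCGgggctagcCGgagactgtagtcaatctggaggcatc
Tcf7l2: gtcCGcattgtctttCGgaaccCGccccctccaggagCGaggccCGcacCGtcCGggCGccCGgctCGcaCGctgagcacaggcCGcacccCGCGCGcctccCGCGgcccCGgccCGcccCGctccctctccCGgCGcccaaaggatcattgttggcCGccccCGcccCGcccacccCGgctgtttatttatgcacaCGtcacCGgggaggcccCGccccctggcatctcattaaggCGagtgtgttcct
Ctnnb1: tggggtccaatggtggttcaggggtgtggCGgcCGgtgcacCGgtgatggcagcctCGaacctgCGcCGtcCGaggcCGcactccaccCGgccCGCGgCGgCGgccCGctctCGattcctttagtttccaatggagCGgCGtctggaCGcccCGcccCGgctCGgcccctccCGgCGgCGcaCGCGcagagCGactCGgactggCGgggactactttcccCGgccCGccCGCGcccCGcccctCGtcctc
Tle3: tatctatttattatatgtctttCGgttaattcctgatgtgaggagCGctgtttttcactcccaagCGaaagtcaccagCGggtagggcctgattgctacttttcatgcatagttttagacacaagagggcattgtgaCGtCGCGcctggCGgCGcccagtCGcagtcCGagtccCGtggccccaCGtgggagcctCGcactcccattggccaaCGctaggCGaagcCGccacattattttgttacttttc
The windows of Tle4 and Tcf7l2 hold 24 and 30 CG dinucleotides, those of Ctnnb1 and Tle3 hold 35 and 17, and the median over the windows of 32851 annotated starts is 6. All 4 lie above this median, but they are a choice among the 11 starts. Over the 11 windows the count ran from 7, at a second start of Tcf7l2, to 43, at a second start of Ctnnb1. TCF/LEF motifs were searched on both strands as CTTTG followed by either A or T at each of the next 2 bases, and were found in 14.8% of all windows and in 1 of the 11 windows of the set, a second start of Tcf7l2. None of the 4 windows printed holds these letters, which says nothing about binding of a TCF factor elsewhere.

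Genes whose transcription is raised by beta-catenin and TCF were then read out in the same libraries. Of a list of 20, 14 stayed under 1 FPKM in all 4 libraries, and the highest value among these was 0.216. Axin2, the most widely used reporter of the pathway, was listed at 0 in all 4 libraries, where 3 reads would have been between 0.036 and 0.078 FPKM. Sp5, Apcdd1, Ascl2, Dkk1, Dkk4 and Wif1 were at 0 in all libraries too. The study measured Dkk1 and Wif1 by real-time PCR at both passages and reported no increase at the later one. Whether its PCR detected transcripts that these libraries list at 0 was not tested. Lgr5, a receptor of cycling follicle stem cells, was at 0 in 3 libraries and at 0.030 FPKM in replicate 2 of 10p-HFSCs. At both passages most of the 20 target genes were near the limit of detection in these libraries. In the study, Wnt inhibitors clearly lowered the number of CD34-positive cells at the earlier passage, with a limited effect at the later one. The low FPKM values therefore do not show that the cells lacked Wnt signaling.

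Of the 6 target genes that passed the filter, 2 were called lower in 48p-HFSCs and none higher (limma, adjusted over all genes), where 9.15% of all genes tested were called lower. An unadjusted p under 0.05 was found for 3 of the 6, and for 37.4% of all genes tested. Fzd7, a Wnt receptor, fell from 42.4 and 44.6 FPKM to 3.12 and 1.93, and its log2 difference was -3.68 (standard error 0.29, adjusted p = 0.00124 from limma). Rnf43, a ubiquitin ligase that removes Wnt receptors from the cell surface, fell from 6.73 and 6.15 FPKM to 2.15 and 1.10, a log2 difference of -1.53 (standard error 0.31, adjusted p = 0.0222 from limma). The call of Rnf43 was lost without the filter on low values (adjusted p = 0.0656) and under rescaling to TPM (0.0815). Leaving out replicate 1 or replicate 2 of 10p-HFSCs ended both calls, with limma adjusted p-values of 0.0666 and 0.0655 for Fzd7 and of 0.250 and 0.205 for Rnf43. The cell cycle gene Ccnd1 (147 and 167 against 172 and 236 FPKM), Myc (67.5 and 69.1 against 68.0 and 86.0) and the adhesion receptor Cd44 (117 and 103 against 152 and 163) were abundant in all libraries and were not called. Znrf3, a relative of Rnf43, was not called (log2 difference -1.24, limma adjusted p = 0.0674), but was under quantile normalization (0.0335) and without replicate 1 of 48p-HFSCs (0.0169). The median log2 difference of the 6 genes was -0.54.

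**Figure D4:**
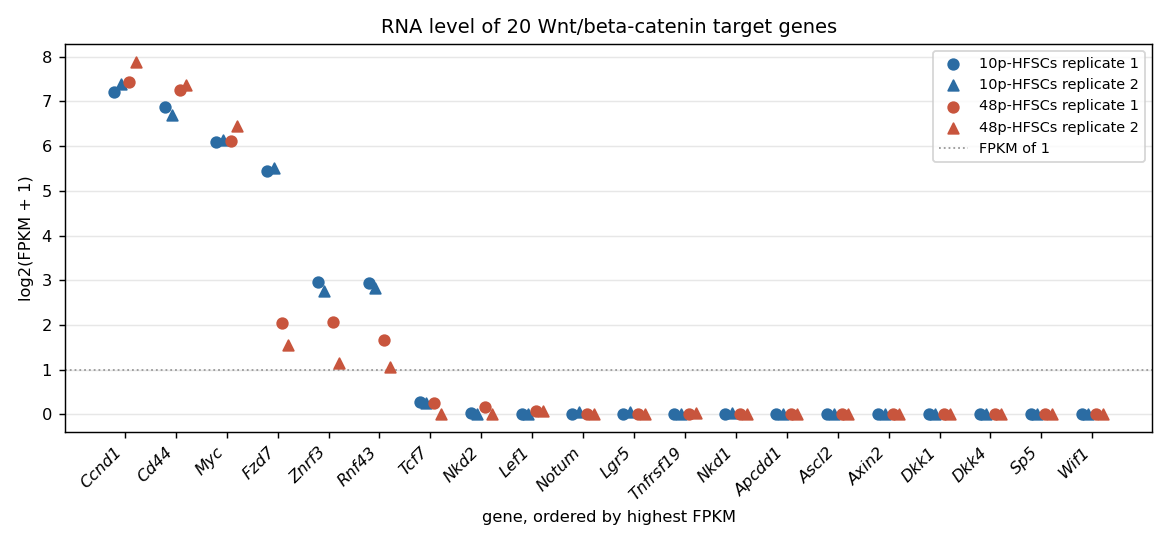
Level of 20 Wnt/beta-catenin target genes as log2(FPKM + 1) in the 4 libraries, with 10p-HFSCs in blue, 48p-HFSCs in red, replicate 1 as circles and replicate 2 as triangles, and a dotted line at an FPKM of 1. The 14 genes on the right, from Tcf7 on, lie below the line in every library, and Fzd7, Znrf3 and Rnf43 lie lower in both 48p-HFSC libraries.

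The other genes of the destruction complex and of its control numbered 17, and 14 of them were tested. Of these, 2 were called, where 19.9% of all genes tested were called. Dvl1, which carries the signal from Wnt receptors to the destruction complex, was called higher, and Rnf146, the ubiquitin ligase that removes Axin after its marking by tankyrase, was called lower. Dvl1 rose from 14.9 and 18.4 FPKM to 42.1 and 57.0, and its log2 difference was 1.51 (standard error 0.28, adjusted p = 0.0171 from limma). Rnf146 fell from 23.8 and 22.6 FPKM to 10.3 and 7.39, and its log2 difference was -1.31 (standard error 0.28, adjusted p = 0.0253 from limma). Rescaling to TPM ended both calls (limma adjusted p of 0.212 for Dvl1 and 0.0798 for Rnf146). So did leaving out replicate 1 or replicate 2 of 10p-HFSCs (0.279 and 0.191 for Dvl1, 0.333 and 0.280 for Rnf146). Unadjusted p-values under 0.05 were found for 6 of the 14 genes, near the 37.4% of all genes tested, and the median log2 difference was 0.15. Of the Dvl1 paralogs, Dvl2 (22.1 and 19.7 against 10.5 and 14.5 FPKM) and Dvl3 (15.9 and 10.9 against 10.1 and 3.35 FPKM) had lower values in 48p-HFSCs and were not called, but Dvl3 was called without replicate 1 of 48p-HFSCs (log2 difference -1.70, limma adjusted p = 0.0333). So was Frat2, an inhibitor of Gsk3 (1.98, adjusted p = 0.00887, against 1.42 and 0.0598 with all libraries), which was also called with the correction for length and GC content (0.0427).

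The second Gsk3 gene, Gsk3a, stood at 42.9 and 42.5 FPKM in 10p-HFSCs, against 39.1 and 58.5 FPKM in 48p-HFSCs, above Gsk3b in every library. Its log2 difference was 0.16 (limma adjusted p = 0.716). Casein kinase Csnk1a1, which primes beta-catenin for Gsk3, was at 80.7 and 70.9 against 89.1 and 125 FPKM and was not called either.

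Of 17 further nuclear partners, 14 were tested and 1 was called, where 19.9% of all genes tested were called. Crebbp, a histone acetyltransferase recruited by beta-catenin, has a long transcript of 10820 bases. It fell from 7.36 and 4.38 FPKM to 1.95 and 0.702. Its log2 difference was -1.58 (standard error 0.39, adjusted p = 0.0388 from limma), and -1.13 with the correction for length and GC content. This call was lost without the filter on low values (adjusted p = 0.0986), under rescaling to TPM (0.0787), with a pseudocount of 0.1 (0.0529), without replicate 2 of 48p-HFSCs (0.113), and without replicate 1 or replicate 2 of 10p-HFSCs (0.332 and 0.184). Tle5, a short TLE relative that lacks the repeat domain of the others and is listed under its older symbol Aes, was the most abundant gene of its family, at 251 and 383 FPKM in 10p-HFSCs, against 142 and 424 FPKM in 48p-HFSCs. Its 48p-HFSC libraries lay on both sides of the earlier group, as did those of Tle1. Tle6 was at 2.24 and 3.58 FPKM against 0.390 and 1.16, without overlap, and missed the threshold (log2 difference -1.15, limma adjusted p = 0.0593), but was called under rescaling to TPM (adjusted p = 0.0370), with the correction for length and GC content (0.0211) and without replicate 2 of 48p-HFSCs (0.0487). Ctnnbip1, an inhibitor of the binding of beta-catenin to TCF, missed it in the other direction, at 10.8 and 15.0 FPKM against 23.5 and 40.04 (log2 difference 1.21, limma adjusted p = 0.0598). It was called under quantile normalization (0.0388) and without replicate 1 of 48p-HFSCs (0.0301). The latter fit also called Bcl9l (0.0188) and Ep300 (0.0455). The median log2 difference of the 14 genes was -0.28.

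**Figure D5:**
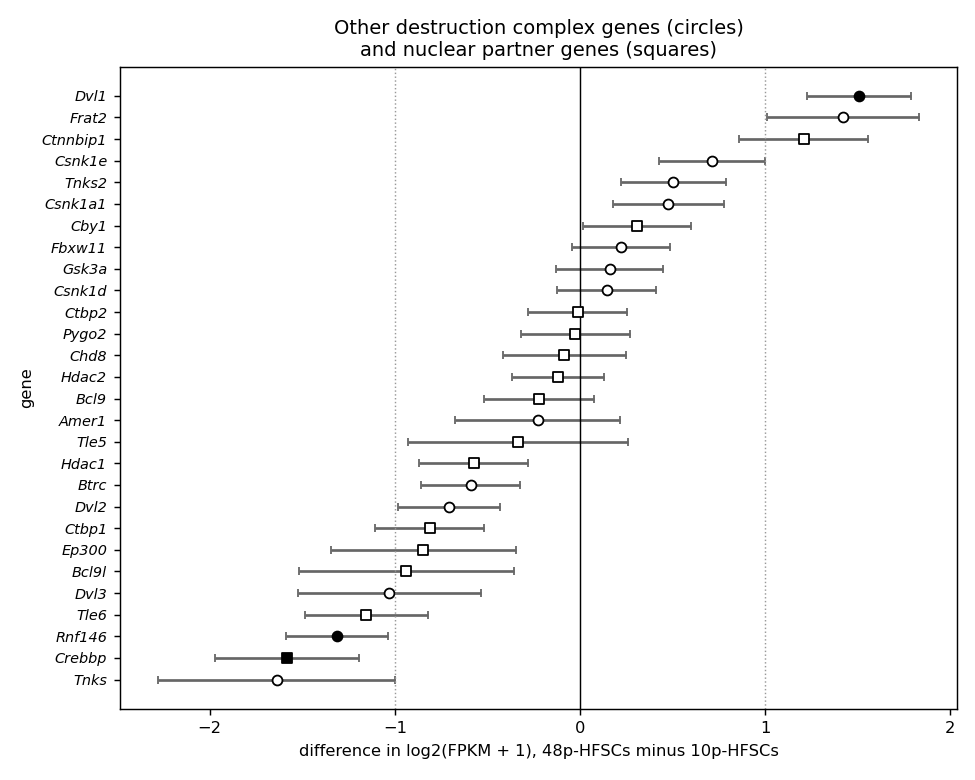
Difference in log2(FPKM + 1), 48p-HFSCs minus 10p-HFSCs, with standard errors from limma, of the 28 further genes tested, with destruction complex genes as circles, nuclear partners as squares, filled symbols for called genes and dotted lines at the fold limit of 1. Dvl1 (1.51) is the called gene on the right, and Rnf146 (-1.31) and Crebbp (-1.58) are the called genes on the left.

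Beta-catenin has a second place at cell junctions, and the genes of its partners there were read in both groups. Of 8 such genes, 5 were tested and limma called 0 of them, where 19.9% of all genes tested were called. An unadjusted p under 0.05 was found for 2 of them (37.4% of all genes tested). E-cadherin (Cdh1) stood at 93.1 and 75.2 FPKM in 10p-HFSCs, against 102 and 113 FPKM in 48p-HFSCs, and alpha-catenin (Ctnna1) at 105 and 86.4 against 115 and 105. Jup, which encodes plakoglobin, the closest relative of beta-catenin, was at 85.7 and 72.2 FPKM against 142 and 172 FPKM. Its libraries did not overlap between the groups, and with a log2 difference of 0.98 (standard error 0.29) its limma adjusted p was 0.0614. Jup was called with the correction for length and GC content (adjusted p = 0.0303) and without replicate 1 of 48p-HFSCs (0.0336). P-cadherin (Cdh3) was at 65.5 and 43.0 FPKM against 28.8 and 22.1, with a log2 difference of -1.04 and a limma adjusted p of 0.0656. Cdh3 was called when the replicate number was fitted as a block (limma adjusted p = 0.00838). The median log2 difference of the 5 genes was 0.21.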

How the data were processed

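RNA of HFSCs at both passages (2 libraries per group) had been prepared with a stranded mRNA kit and sequenced from one end. The authors mapped reads to mm10 and deposited a table of FPKM values by gene symbol for each library. The submitters' processing notes name TopHat2 2.1.1, Bowtie2 2.2.8, SAMtools 0.1.18 and Cuffdiff 2.2.1, while the methods give other versions of Bowtie2 and SAMtools and name Cufflinks. The annotation, strand setting and treatment of multiply mapped reads are not given in the sources used here.

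Groups were compared on log2(FPKM + 1) with limma 3.58.1 (variance trend, no block) in R 4.3.3, over the 11018 genes that reached 1 FPKM in 2 or more libraries. Only FPKM values were used, so no count test was run. A gene that was not called may still differ between the groups. Depth was estimated from genes with an FPKM under 0.3 and 1 transcript (GENCODE M21), since FPKM times length less 199 bases gathered at whole multiples of a step. Of the values up to 4 reads, 77.6% to 80.7% lay within 0.1 of a whole number. Read numbers use the mean length of a gene's transcripts and are approximate. Positions are those of GENCODE M21 (GRCm38, the same assembly as mm10). Same-numbered libraries share only a number, so the block was an alternative. Others were scalings, filters, a pseudocount of 0.1, a constant variance prior, no fold limit and each library left out.

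The members and lists were chosen with earlier results of these data known. Named were the 10 members, the called genes of the other lists and markers of at least 1 FPKM. All further genes named were chosen after their values were seen.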

Additional observations from a re-analysis of the deposited data

How the results depend on the processing

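Tle4 was called higher and Tle2 lower under every setting except without a 10p-HFSC library, and the other 6 genes tested were not called under any setting. Most settings kept a filter that Tle4 and Tle2 each passed through 1 group only, so their repeated calls are no added support. Without the filter on low FPKM, the limma adjusted p-values of Tle4 and Tle2 were 0.0107 and 0.0314. With each library left out in turn, 0 to 2 of the 10 genes were called, and 2 had an unadjusted p under 0.05 in the limma fits that called 0. An arm with 1 library was assumed to vary like the other group. Genes called higher ranged from 35 to 1936 and genes called lower from 140 to 1875 with a library left out. Called genes ranged from 0 to 4 for the other destruction complex genes, 0 to 4 for the nuclear partners, 0 to 3 for the target genes and 0 to 1 for the junction partners. The log2 difference of Apc ranged from -0.69 to 0.0852, that of Tle1 from -0.87 to 0.36, that of Tle3 from 0.0042 to 0.40 and that of Ctnnb1 from -0.38 to -0.066. The difference in the share of Tle1 ranged from -19.5 to -2.96, of Tle3 from -1.10 to 7.52 and of Tle4 from 8.79 to 16.7 percentage points.

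Under rescaling to TPM, 616 genes were called higher against 1189, and 900 lower against 1008. This moved the median log2 difference of all genes from -0.03 to -0.56. Tle3 turned to -0.36, but relative to that median it was at 0.21, as against 0.24 before. In the same fit 0 destruction complex genes (3 at an unadjusted p under 0.05), 2 nuclear partners and 1 target gene were called. Without the filter, 637 genes were called lower, with 0 nuclear partners (4 at an unadjusted p under 0.05) and 1 target gene. A pseudocount of 0.1 left 0 nuclear partners (again 4 unadjusted), and quantile normalization gave 3.

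Fitting the replicate number as a block gave 1613 calls upward and 1497 downward, among them 5 destruction complex genes (Dvl3, Frat2 and Tnks beside Dvl1 and Rnf146), 3 nuclear partners (Tle6 and Ctnnbip1 beside Crebbp), the target Znrf3 and 1 junction partner (Cdh3). It changed no call among the 10 genes, although Axin1 reached an adjusted p of 0.0461 below the fold limit. Deviations of same-numbered libraries had a correlation of 0.408 across genes. The correction for transcript length and GC content, added after the values had been seen, turned Apc to 0.22 without and with the block. It gave 2 nuclear partners and 1 junction partner, and together with the block 4 destruction complex genes, 2 nuclear partners and 1 junction partner. Ratios of Tcf7l2 to Tcf7l1 were not computed, as 1 or both genes were at 0 in each library. The cause of these changes was not tested. Depth limits Tle2, Tcf7l1 and Tcf7l2 most, which rest on about 6.06 reads or fewer in 48p-HFSCs.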
